A study of Caenorhabditis elegans with 8 samples.

Results

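The genes described here make glutathione, recycle it, build phytochelatin from it and move phytochelatin. They are gcs-1, gss-1, gsr-1, pcs-1 and hmt-1, taken by symbol from the 46726 genes listed for each library, and all 5 passed the filter on low counts that left 15818 genes for testing. The libraries come from whole Caenorhabditis elegans of the wild-type strain N2 and of an N2 derivative with the hizr-1 loss-of-function allele am286. Each strain was kept without cadmium chloride or with it at 100 mM, the unit the labels write. Micromolar concentrations are usual for this animal, so the true dose may be far lower, and the files do not settle it. Every group held 2 libraries, each from animals pooled over 10 plates of mixed stages that had spent 16 to 18 h at 20 °C on noble agar minimal medium with E. coli OP50. The strains were grown in parallel from 3 L4 hermaphrodites a plate for 4 days before the transfer. P-values measure the spread between such pooled plates, which may come from 1 growth, so that this spread may be technical. The question was whether the exposure, or the loss of hizr-1, moved the RNA level of these genes.

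Glutathione is a tripeptide thiol that cells use to buffer oxidants and to bind soft metals such as cadmium. Glutamate-cysteine ligase, encoded by gcs-1, carries out the rate-limiting first step of its synthesis, glutathione synthetase, encoded by gss-1, adds the glycine, and glutathione reductase, encoded by gsr-1, returns oxidised glutathione to the reduced form with NADPH. Phytochelatin synthase, encoded by pcs-1, joins glutathione units into phytochelatins, metal-binding peptides best known from plants and fission yeast. The half-size ABC transporter encoded by hmt-1 is named after the fission yeast protein that carries phytochelatins into the vacuole. Loss of pcs-1 or of hmt-1 is known to make C. elegans hypersensitive to cadmium. HIZR-1, a nuclear receptor, activates the genes of the high zinc response.

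The libraries held 17681352 to 29586507 counts. By the chi-square of counts per degree of freedom, which also depends on depth, in no group were the replicates each other's nearest library. The value between replicates was 24.0 to 61.6, highest for wild type without cadmium. On the first 2 principal components of log2 CPM, mutant with cadmium replicates 1 (25.3 and 10.8) and 2 (28.4 and 7.25) were each other's nearest library. Replicate 2 of that group was nearer to mutant with cadmium replicate 2 (11.3) and mutant without cadmium replicate 1 (16.2). Mutant without cadmium replicate 1 lay nearest to mutant with cadmium replicate 2 (9.27), against 51.2 for its own replicate. By chi-square only wild type with cadmium replicate 1 was nearest to its own replicate (32.2). Leaving out any 1 library left 0 of the 5 genes called in every contrast. Markers of coelomocytes, intestine, oocytes with early embryos, hypodermis, body muscle and neurons all had counts in every library. Of 36 sperm markers 32 to 34 had counts. Their summed level ran from 20.4 to 346 CPM (counts per 1000000 of a library size scaled by trimmed mean of M-values, TMM). In unexposed wild type it was 59.6 and 218 CPM and in exposed wild type 20.4 and 53.8 CPM, while in the mutant it was 346 and 150.4 CPM unexposed and 242 and 259 CPM exposed. The targeted gene hizr-1 had 57 and 52 counts in unexposed wild type, 101 and 77 in exposed wild type, 18 and 7 in the unexposed mutant and 20 and 18 in the exposed mutant. Every mutant library lay below every wild-type library. The log2 difference for hizr-1 was -1.99 ± 0.377 (SE) without cadmium, which missed the threshold (adjusted p = 0.0931), and -2.16 ± 0.347 with cadmium (adjusted p = 0.00635). The second call was lost without wild-type cadmium replicate 1 (-2.16) or mutant cadmium replicate 1 (-1.89), and with the median level of the sperm markers as a covariate (-2.60). The summed sperm level itself separated the genotypes with cadmium, and exposed from unexposed wild type. In these comparisons an effect of the covariate therefore cannot be told apart from that of genotype or cadmium.

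Levels of the 5 genes, as TMM-scaled CPM, spanned a ratio of 1.13 to 1.34 between the highest and the lowest of the 8 libraries. The ligase gene gcs-1 (WBGene00001527, WBcel235 chromosome II, 9035561 to 9038301, - strand, 7 exon blocks) had 131.0 and 118 CPM in unexposed wild type and 119 and 129.9 CPM with it. In the mutant gcs-1 had 121 and 157 CPM without cadmium and 137 and 132 CPM with it. The mutant library at 157 CPM was the highest of the 8, and its partner in the same group was among the lowest, so the groups overlapped in all comparisons except mutant against wild type with cadmium. There both mutant libraries lay above both wild-type libraries, as they did for 20.8% of all tested genes.

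The synthetase gene gss-1 (WBGene00010941, chromosome II, 9414559 to 9416431, - strand, 5 exon blocks) varied least. It had 83.7 and 80.4 CPM in unexposed wild type, 75.8 and 82.8 CPM after exposure, 76.9 and 85.3 CPM in the mutant without cadmium, and 78.3 and 79.6 CPM with it. Its groups overlapped in all 4 pairwise comparisons.

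The reductase gene gsr-1 (WBGene00008117, chromosome III, 3650906 to 3653154, + strand, 6 exon blocks) had the highest counts of the set. It was at 212 and 216 CPM in unexposed wild type, 214 and 224 CPM with it, 194 and 218 CPM in the mutant without cadmium, and 208 and 209.6 CPM with it. With cadmium both mutant libraries lay below both wild-type libraries, as they did for 15.7% of all tested genes, and the other groups overlapped. Of its exon length 14.9% is shared with C46F11.5 on the other strand, and with no strand setting given the reads of that stretch cannot be assigned to either gene.

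The phytochelatin synthase gene pcs-1 (WBGene00003960, chromosome II, 11574940 to 11577280, - strand, 6 exon blocks) was the least abundant, with 295 to 483 counts in a library. It had 15.6 and 16.2 CPM in unexposed wild type, 15.7 and 17.1 CPM after exposure, 15.5 and 18.2 CPM in the mutant without cadmium, and 15.5 and 15.2 CPM with it. As for gsr-1 and 15.7% of all tested genes, both mutant libraries with cadmium lay below both wild-type libraries with cadmium. The distance was less than the gap between the replicates of the mutant without cadmium. The opposite-strand gene F54D5.2 covers 4.25% of the exon length of pcs-1.

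The transporter gene hmt-1 (WBGene00001815, chromosome III, 11091553 to 11099951, - strand, 12 exon blocks) had 109.8 and 99.3 CPM in unexposed wild type and 85.0 and 105.3 CPM with it. In the mutant hmt-1 had 91.0 and 105.5 CPM without cadmium and 90.2 and 98.4 CPM with it. Its lowest library, wild type with cadmium replicate 1, sat beside a replicate near the top of the range, and its groups overlapped in all 4 pairwise comparisons. The opposite-strand gene W09D6.5 covers 2.65% of the exon length of hmt-1.

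**Figure D1:**
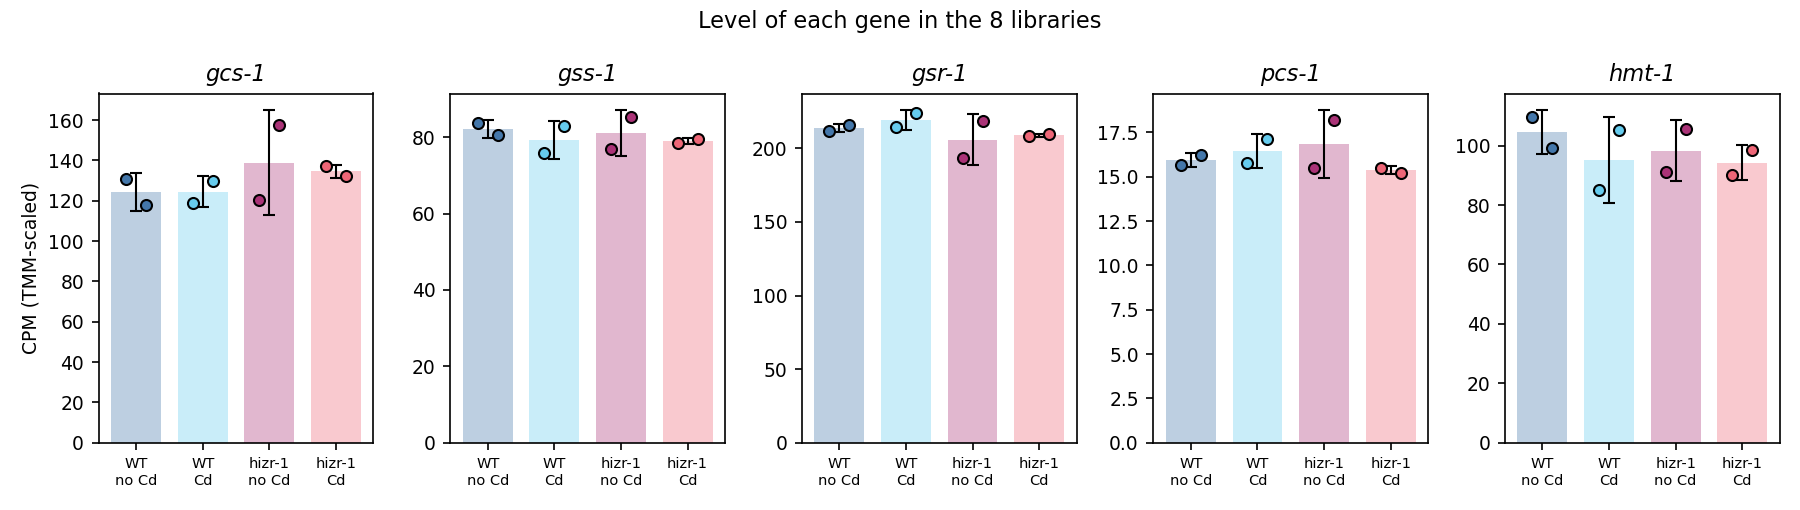
TMM-scaled CPM (vertical axis, starting at 0, a scale of its own for each gene) of the 5 genes in wild type (WT) and hizr-1 mutant libraries without and with cadmium (Cd). Points are libraries, bars are group means and error bars are SD (n = 2); the highest library of a gene is 1.13 to 1.34 times its lowest.

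None of the 5 genes passed the test for cadmium in the wild type. By edgeR's quasi-likelihood test 0 rose and 0 fell, against 0.284% of all tested genes called (0.234% higher, 0.0506% lower), and 0 of the 5 had an unadjusted p under 0.05, against 11.5% of all tested genes. DESeq2 and limma-voom also called 0. The log2 change was 0.00022 ± 0.151 (SE) for gcs-1, with group means of 124 ± 9.31 CPM without and 124 ± 7.59 CPM with cadmium (SD, n = 2). It was -0.050 ± 0.133 for gss-1, 0.034 ± 0.134 for gsr-1 and 0.043 ± 0.182 for pcs-1. For hmt-1 it was -0.14 ± 0.151, with means of 104.5 ± 7.41 and 95.1 ± 14.3 CPM, and this was the lowest adjusted p of the 5 (0.749). The median of the 5 was 0.00022, beside -0.011 over all tested genes.

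The intervals bound the change in the whole-animal level only, given the spread between pooled plates, which may be technical. A larger change confined to a few cells was not tested. The 95% interval of the fold change in the wild type ran from 0.797 to 1.26 for gcs-1, 0.790 to 1.18 for gss-1, 0.837 to 1.25 for gsr-1, 0.784 to 1.35 for pcs-1 and 0.725 to 1.14 for hmt-1. A 1.5-fold rise of the whole-animal level lay outside all 5 intervals. In the same libraries 5 of the 6 HIZR-1 metal-response genes rose. Their intervals began at a log2 change of 5.29 for the metallothionein gene mtl-1, 4.57 for mtl-2, 6.23 for cdr-1, 1.93 for the zinc transporter gene cdf-2 and 0.56 for the zinc exporter gene ttm-1, all above the highest upper bound of the 5 glutathione and phytochelatin genes, 0.44 for pcs-1. The call of ttm-1 was lost in 8 of 17 alternatives, among them without wild type without cadmium replicate 2 (0.90) and without either wild-type (1.05 and 0.76) or either mutant (0.91 and 0.91) cadmium library. The list's remaining gene, hizr-1, was at 0.62 ± 0.310 in the wild type and 0.45 ± 0.419 in the mutant, where it had the list's lowest unadjusted p and 0 of the 6 passed.

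In the hizr-1 mutant 0 of the 5 genes passed the test for cadmium, where 0.0316% of all tested genes were called (0.0253% higher, 0.00632% lower). Of all tested genes 1.78% had an unadjusted p under 0.05. These were 282 genes, beside 791 expected by chance, so the test may be conservative here. None of the 5 had an unadjusted p under 0.05, and DESeq2 and limma-voom called 0. The log2 change was -0.044 ± 0.151 for gcs-1, -0.038 ± 0.133 for gss-1, 0.021 ± 0.134 for gsr-1, -0.13 ± 0.182 for pcs-1 and -0.060 ± 0.151 for hmt-1. The value of pcs-1 was -0.24 without mutant replicate 1 lacking cadmium and -0.015 without replicate 2. The fold intervals together spanned 0.695 to 1.24. Averaging the cadmium effect over both genotypes, a contrast chosen after seeing the data, narrowed the intervals. The averaged fold was then 0.985 for gcs-1 (0.839 to 1.16), 0.970 for gss-1 (0.842 to 1.12), 1.02 for gsr-1 (0.884 to 1.18), 0.971 for pcs-1 (0.800 to 1.18) and 0.934 for hmt-1 (0.795 to 1.10), and 0 of the 5 passed while 0.171% of all tested genes did.

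**Figure D2:**
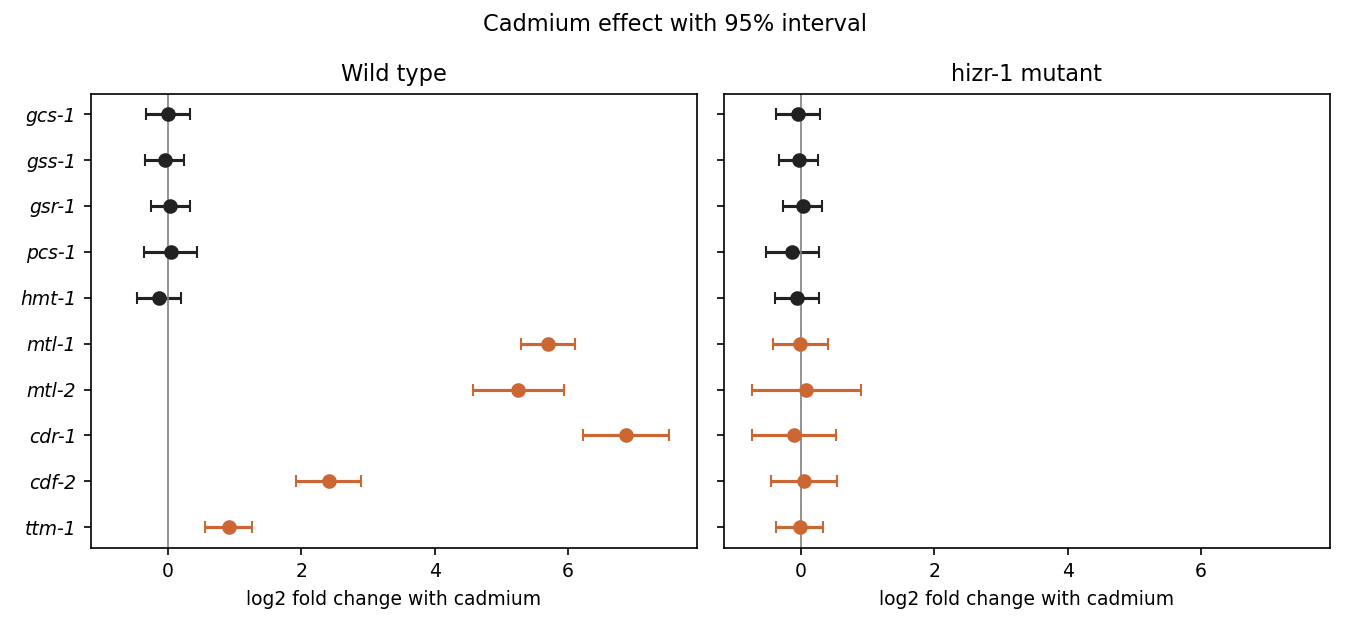
Cadmium effect (horizontal axis, log2 fold change with 95% interval) in wild type (left) and hizr-1 mutant (right). The 5 glutathione and phytochelatin genes (black) lie within 0.14 of 0 in both panels; the 5 metal-response genes drawn (orange, without hizr-1) lie at 0.91 to 6.87 in the wild type.

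No gene of the set passed the test between the genotypes. Without cadmium 0 of the 5 passed, where 0.126% of all tested genes were called (0.0885% higher in the mutant, 0.0379% lower). With cadmium 0 of the 5 passed, where 4.26% were called (3.83% higher, 0.43% lower). In neither comparison did any of the 5 have an unadjusted p under 0.05, against 10.8% of all tested genes without and 11.2% with cadmium. DESeq2 and limma-voom called 0. The largest differences were those of gcs-1, 0.16 ± 0.151 without cadmium (adjusted p = 0.825) and 0.11 ± 0.151 with cadmium (adjusted p = 0.9987). Without mutant replicate 1 lacking cadmium the gcs-1 value became 0.34, and without mutant replicate 2, the library at 157 CPM, it became -0.016. With cadmium it ranged from 0.051 without wild-type cadmium replicate 1 to 0.359 with the sperm covariate, with adjusted p of 0.641 or more over the 17 alternatives. The separation of the libraries with cadmium, gcs-1 upward and gsr-1 and pcs-1 downward, covered 3 of the 5 genes. Groups of 2 libraries that do not overlap occurred at 36.5% of all tested genes in that comparison, and at 39.6%, 31.5% and 38.5% in the 3 others, where 0 of the 5 were separated.

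The cadmium effect did not differ detectably between the genotypes. In the interaction contrast, the mutant's effect less the wild type's, 0 of the 5 passed while 0.114% of all tested genes did (0.00632% higher, 0.107% lower). An unadjusted p under 0.05 was found for 0 of the 5 and for 3.24% of all tested genes. These were 513 genes, beside 791 expected by chance, so the test may be conservative here. DESeq2 and limma-voom called 0. The log2 difference ran from -0.17 ± 0.257 for pcs-1 to 0.076 ± 0.214 for hmt-1, and the 95% intervals together spanned -0.73 to 0.54. Between genotypes with cadmium all 6 metal-response genes were lower in the mutant, the value of hizr-1 being given above. The log2 difference was -0.91 ± 0.163 for ttm-1 and -2.28 ± 0.222 for cdf-2, and it was larger in size for cdr-1 (-6.02 ± 0.279), mtl-1 (-6.16 ± 0.193) and mtl-2 (-7.63 ± 0.347). The ttm-1 call was lost without wild-type cadmium replicate 1 (-1.05), without mutant cadmium replicate 1 (-0.91) or 2 (-0.92) and with the sperm covariate (-1.04). Without cadmium mtl-2 was lower (-2.45 ± 0.321, adjusted p = 0.0348), a call lost without either exposed wild-type library (-2.45 and -2.45), without either unexposed mutant library (-2.87 and -2.14) and when the contrast's 4 libraries were fitted alone (-2.44). The contrasts share libraries, so their values are not independent of each other.

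The order of the 5 genes by level was read per length. Per kilobase of exon, TMM-scaled CPM was 100.4 to 116 for gsr-1, 50.5 to 67.4 for gcs-1, 46.6 to 52.5 for gss-1, 33.1 to 42.8 for hmt-1 and 11.1 to 13.3 for pcs-1 over the 8 libraries. This order held in 8 of 8 libraries. The ranges of gcs-1 and gss-1 overlapped, with gcs-1 at 1.02 to 1.28 times gss-1 in a library, and no other neighbours in the order overlapped. The reductase gene was at 1.68 to 2.22 times gcs-1, and hmt-1 at 2.87 to 3.73 times pcs-1. Among all tested genes, the mean per-kilobase level of gsr-1 stood at the 93.8th percentile and that of pcs-1 at the 57.3rd. Exon lengths of another annotation release of the same build, a choice made after seeing the data, gave 122.1 to 141 for gsr-1 and 8.34 to 9.98 for pcs-1 and left the order as it was.

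Variation over the 8 libraries was set beside all tested genes with a mean of at least 10 CPM, which were not matched in abundance to the set. The highest library of gss-1 was 1.13 times its lowest, and 0.596% of those 7722 genes had a smaller ratio. The ratio was 1.16 for gsr-1 (1.74% smaller), 1.20 for pcs-1 (5.27%), 1.29 for hmt-1 (24.0%) and 1.34 for gcs-1 (35.1%), beside a median of 1.40 over those 7722 genes.

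Levels were compared between the genes of the set, library by library. For gss-1 and hmt-1, over the 8 libraries their log2 CPM correlated with Pearson's r = 0.95 and Spearman's rho = 0.95 (exact permutation p = 0.000843 and 0.00114, Benjamini-Hochberg over the 10 pairs of the set 0.00843 and 0.0114). Among all tested genes this r stood at the 98.8th percentile of the values for gss-1 and at the 99.5th of those for hmt-1, so that more than 1% of genes followed gss-1 more closely. Pearson's r was 0.97 without the 2 libraries farthest from the median of gss-1. As deviations from the group means it was 0.95, and over all 10 pairs such values ran from 0.67 to 0.98, highest for gsr-1 and pcs-1. With 2 libraries a group the deviations mirror each other, so these values rest on 1 independent point per group. The permutations, here and for the marker lists below, exchanged all 8 libraries without regard to group. The pair gsr-1 and pcs-1 passed by rank only, with rho = 0.90 (exact permutation p = 0.00456, adjusted 0.0228) and r = 0.64 (exact permutation p = 0.1002, adjusted 0.208), and the other 8 pairs did not pass. All values of a library share 1 scaling factor and 1 depth, whose part in these relations was not tested.

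Summed CPM of the 8 oocyte and early embryo markers was set beside hmt-1, the gene with the lowest p against this list. The sum was 15355 and 14439 in unexposed wild type, 11214 and 13809 with it, 11782 and 13094 in the mutant without cadmium, and 10973 and 12506 with it. The replicate with the higher marker sum had the higher hmt-1 level in each of the 4 groups, and likewise the higher gss-1 level. This failed for gcs-1 in the exposed mutant (137 and 132 CPM) and for gsr-1 in unexposed wild type (212 and 216 CPM). For pcs-1 it failed in both of these groups (15.5 and 15.2 CPM, 15.6 and 16.2 CPM). The share of all tested genes for which it held was not counted. For hmt-1 and the marker sum r was 0.88 and rho 0.88 (exact permutation p = 0.00541 and 0.00724). Adjusted over 35 relations of gene and marker list this did not pass (0.189 and 0.253). The part of these cells in the level of hmt-1 was not tested. In RNA of whole animals, fewer cells of a type and less RNA per cell cannot be told apart.

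**Figure D3:**
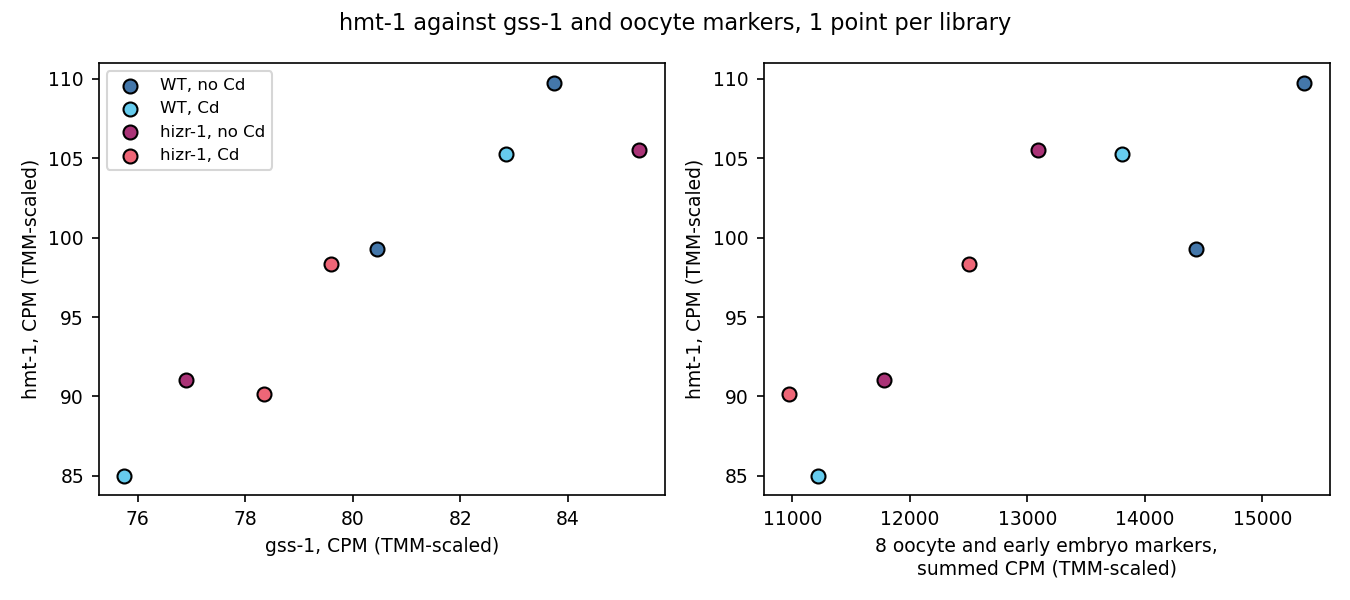
hmt-1 (vertical axes, TMM-scaled CPM) against gss-1 (left, TMM-scaled CPM) and against the summed TMM-scaled CPM of 8 oocyte and early embryo markers (right), 1 point per library in wild type (WT) and hizr-1 mutant without and with cadmium (Cd); axes do not start at 0. Libraries of all 4 groups lie along the same rising line on the left, from 75.8 to 85.3 CPM of gss-1.

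The tested genes with the profile most like each of the 5, by Pearson's r over the 8 libraries, were named as a description. For gcs-1 these were T05A12.4 (0.98), mans-3 (0.94) and the dosage compensation gene sdc-3 (0.94). For gss-1 they were the acetyltransferase gene pcaf-1 (0.997), R09A8.2 (0.99) and the vesicle tethering gene vps-16 (0.99). For gsr-1 they were C52B9.4 (0.97), Y55F3AM.5 (0.93) and the globin gene glb-14 (0.93). For pcs-1 they were rop-1, which encodes the Ro RNA-binding protein (0.98), the nuclear receptor gene nhr-59 (0.97) and kel-3 (0.95). For hmt-1 they were the replicative helicase gene mcm-3 (0.98), pign-1 (0.98) and the centrosome gene spd-2 (0.98). These are the highest of 15818 values of r over 8 libraries, a choice that itself makes them high.

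Genes around the set were read from lists of the same pathway. The list around cysteine, the limiting building block of glutathione, held 15 tested genes, which include cdo-1, whose enzyme cysteine dioxygenase consumes cysteine. With cadmium 1 of them fell in the wild type and 0 passed in the mutant, with list medians of -0.18 and -0.12. The gene that fell was cth-1, encoding cystathionine gamma-lyase, which releases cysteine: it had 57.7 ± 10.0 CPM without and 27.8 ± 1.34 CPM with cadmium (SD, n = 2; log2 change -1.05 ± 0.175, adjusted p = 0.0286). The call was lost with the sperm covariate (-0.94), without wild type without cadmium replicate 2 (-0.86), without either wild-type cadmium library (-1.10 and -1.01) and without either mutant cadmium library (-1.05 and -1.05). In the mutant cth-1 had 17.8 ± 1.65 and 27.8 ± 1.89 CPM, and was lower than the wild type without cadmium (-1.69 ± 0.179, adjusted p = 0.00209), a call lost with only the libraries of that contrast (-1.67). With cadmium the S-adenosylmethionine synthetase gene sams-5 (2.27 ± 0.391, adjusted p = 0.0138) and the cystathionine beta-synthase gene cbs-2 (2.63 ± 0.598, adjusted p = 0.042) were higher in the mutant. With the sperm covariate these became 0.88 and 0.68, and neither passed. The sperm markers themselves differed in this comparison (median log2 difference 2.79), so the covariate and the genotype cannot be told apart. Both also lost the call without wild type with cadmium replicate 1 (1.80 for sams-5, 2.098 for cbs-2) or without mutant with cadmium replicate 1 (2.34, 2.74) or 2 (2.20, 2.51), and cbs-2 without wild type with cadmium replicate 2 (3.31) or mutant without cadmium replicate 1 (2.63) or 2 (2.61).

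Of 6 genes listed under glutathione turnover and 4 under supply of NADPH, the electron donor of glutathione reductase, 0 passed in any of the 5 contrasts. Their lowest unadjusted p in the wild type with cadmium belonged to Y7A9A.1 (log2 change 0.57 ± 0.248, adjusted p = 0.413) and to nnt-1, encoding a mitochondrial transhydrogenase (0.75 ± 0.345, adjusted p = 0.443). In the mutant they were T03D8.6 (-0.24 ± 0.220) and nnt-1 (-0.21 ± 0.346). Nor did any of 10 thioredoxin and glutaredoxin genes or 11 genes of glutathione peroxidases, omega transferases and glyoxalase pass, with trx-3 at 0.67 ± 0.328 and gpx-3 at 0.49 ± 0.271 in the wild type and trx-4 at 0.38 ± 0.254 and gpx-1 at 0.29 ± 0.240 in the mutant.

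SKN-1 is the transcription factor known to drive gcs-1 under oxidative stress. Of 12 genes of its pathway and targets 0 passed in any contrast. With cadmium the list median was -0.017 in the wild type and 0.0034 in the mutant. The gene skn-1 itself was at -0.24 ± 0.130 in the wild type (adjusted p = 0.508), and in the mutant the lowest unadjusted p was that of ugt-13 (-0.46 ± 0.171, adjusted p = 0.9999). Of 16 ABC transporter genes of the haf, mrp and abtm families, relatives of hmt-1, 0 passed in any contrast. Their median with cadmium was -0.076 in the wild type and -0.15 in the mutant, beside -0.011 and 0.0017 over all tested genes. In the mutant 15 of the 16 lay below 0. The share of all tested genes below 0 was not counted, but with a median above 0 it was no larger than the share above. Other lists were also one-sided in the mutant. Of the cysteine list 12 of 15 genes lay below 0, while 31 of 37 glutathione S-transferase genes and 8 of 10 thioredoxin and glutaredoxin genes lay above 0. The lowest unadjusted p among the 16 belonged to mrp-7 in the wild type (-0.33 ± 0.166) and to mrp-5, a haem exporter gene, in the mutant (-0.43 ± 0.135, adjusted p = 0.9999).

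Of 37 tested glutathione S-transferase genes, which attach glutathione to foreign compounds, 2 rose with cadmium in the wild type and 1 in the mutant, with list medians of 0.41 and 0.24 beside -0.011 and 0.0017 over all tested genes. The gene gst-38 went from 4.22 ± 0.674 to 49.9 ± 10.1 CPM in the wild type (3.57 ± 0.276, adjusted p = 6.73e-05) and from 6.49 ± 0.601 to 24.7 ± 8.46 CPM in the mutant (1.93 ± 0.260, adjusted p = 0.0454). The mutant call was lost without mutant with cadmium replicate 1 (1.53), without mutant without cadmium replicate 1 (2.03) or 2 (1.83) and without either wild-type cadmium library (1.93 and 1.93), and also by limma-voom (1.91) and when the 4 mutant libraries were fitted alone (1.93). In the wild type gst-33 went from 1.00 ± 0.547 to 5.41 ± 0.368 CPM (2.39 ± 0.368, adjusted p = 0.0176), a call lost without wild-type cadmium replicate 1 (2.32) or 2 (2.45). Between genotypes with cadmium gst-33 (-2.25 ± 0.364, adjusted p = 0.00648) and gst-38 (-1.01 ± 0.245, adjusted p = 0.0396) were lower in the mutant. The gst-33 call was lost without wild type with cadmium replicate 1 (-2.18) or mutant with cadmium replicate 1 (-2.46) or 2 (-2.11). That of gst-38 was lost without wild-type cadmium replicate 1 (-1.21) or 2 (-0.79) and without mutant with cadmium replicate 2 (-0.70). With the sperm covariate gst-33 was -1.66, gst-38 -1.58 and gst-24 0.84 in this comparison, and none passed. The wild-type call of gst-33 was also lost with the sperm covariate (2.04). In both comparisons the covariate cannot be told apart from genotype or cadmium. In the interaction contrast 0 of the 37 genes passed, so a cadmium effect that differs between the genotypes was not shown for gst-33 or gst-38. The gene gst-24 was higher in the mutant both without cadmium (2.09 ± 0.230, adjusted p = 0.00216) and with it (1.04 ± 0.219, adjusted p = 0.0194), the first call being lost with only the libraries of that contrast (2.12) and the second without wild-type cadmium replicate 1 (1.13) or 2 (0.95) or mutant cadmium replicate 1 (0.87) or 2 (1.18).

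**Figure D4:**
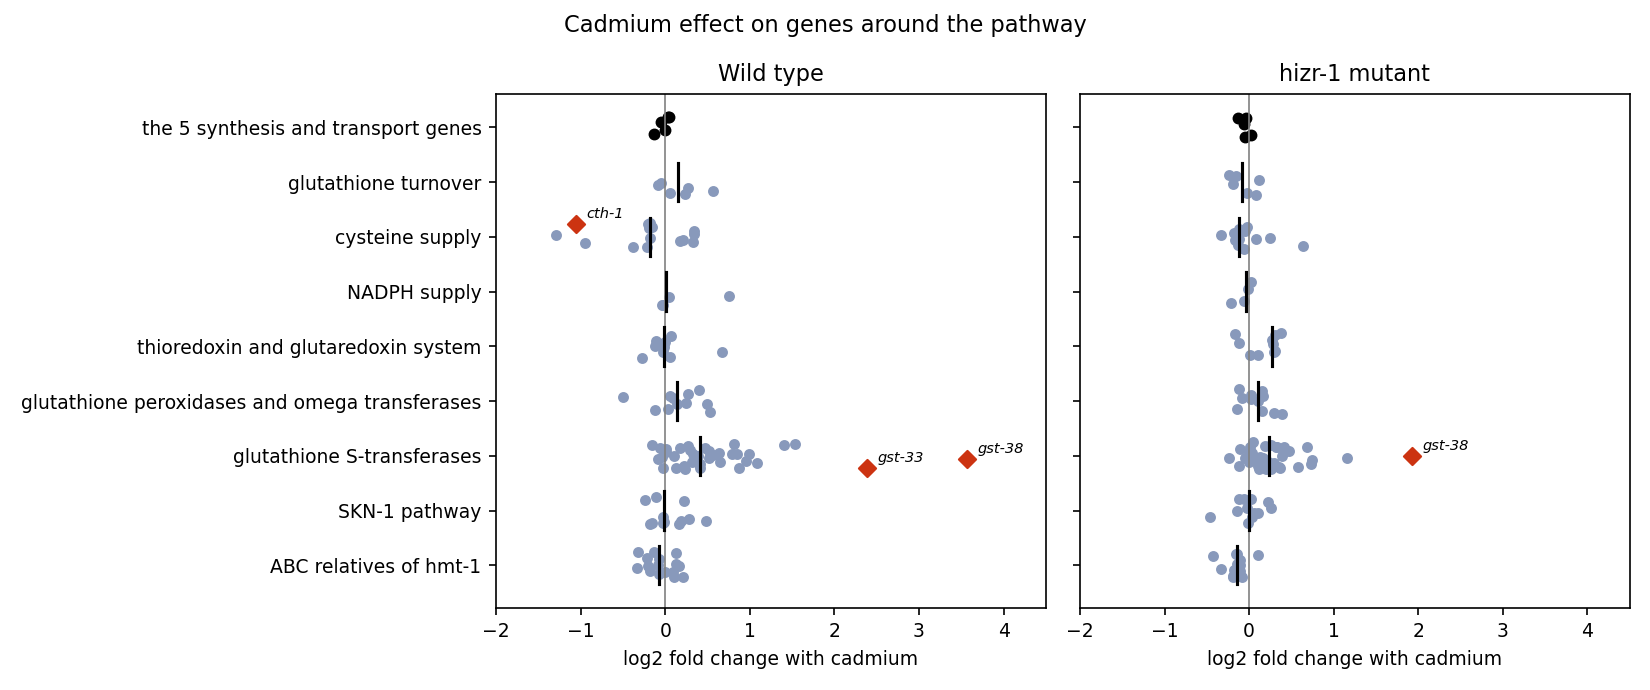
Cadmium effect (horizontal axis, log2 fold change) of the tested genes of 8 lists, the HIZR-1 metal-response list not drawn, in wild type (left) and hizr-1 mutant (right); each point is a gene, red diamonds passed an adjusted p of 0.05, black lines are list medians and vertical scatter within a list has no meaning. The 5 synthesis and transport genes (top) lie between -0.14 and 0.043, and the genes that passed in the lists drawn are cth-1, gst-33 and gst-38.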

How the data were processed

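RNA was extracted with Trizol and a column and depleted of ribosomal RNA with Ribo-Zero, per the labels' protocols. Per the submitters' processing notes, STAR 2.0.4b, Subread and featureCounts 1.45 were used, with WBcel235. The release of the annotation, strand setting and treatment of multiply matching reads are not given in the sources used here.

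The deposited count column holds whole reads per gene. The authors' CPM is that count per 1000000 of the library's counts, and the authors' RPKM is that CPM per kilobase, per the file headers. Both were recomputed from the counts for all 46726 genes. Symbols came from a table of gene names and coordinates from the files.

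All 8 libraries entered 1 edgeR fit (edgeR 4.0.16, R 4.3.3; filterByExpr with minimum count 10 and minimum total 15, TMM, robust quasi-likelihood, 4 group means). Adjusted p is Benjamini-Hochberg over 15818 genes, with a threshold of 0.05. Intervals use 95% and the quasi-likelihood SE. They cover only the spread between pooled plates, which may come from 1 growth, so that this spread may be technical. DESeq2 1.42.0 and limma 3.58.1 were alternatives.

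From the pathway lists, not the marker lists, were named all genes that passed and, per cadmium contrast, the gene with the lowest unadjusted p, together with the 3 most similar profiles per gene of the set. The genes of the set and the lists were chosen with earlier results of these data known. The labels do not say that a replicate number marks a shared batch, so the replicate block was an alternative only. The correlation of replicate differences between groups ran from -0.43 to 0.42. With 1 difference per group this cannot decide whether replicate numbers mark pairs. No 2 libraries agreed within sampling noise: the lowest chi-square per degree of freedom was 9.27, between mutant without cadmium replicate 1 and mutant with cadmium replicate 2. No sequences are shown, as none were used here.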

Additional observations from a re-analysis of the deposited data

Results flagged for a closer look

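None of the 5 glutathione and phytochelatin genes showed a cadmium effect that differed between the genotypes. Among the genes around them, the difference itself (mutant minus wild type, log2) passed the test for 5. It was 1.69 for cth-1, for which cadmium lowered the wild-type level while the mutant value was 0.64, -5.71 for mtl-1, -5.18 for mtl-2, -6.98 for cdr-1 and -2.37 for cdf-2. The calls of mtl-1 and cdr-1 held in all 16 alternatives, while that of cth-1 was lost in 7, that of cdf-2 in 4 and that of mtl-2 in 2. For mtl-2 these were without wild-type cadmium replicate 1 (-5.18) or 2 (-5.17). For cdf-2 they were without wild-type cadmium replicate 1 (-2.47) or 2 (-2.25) or mutant cadmium replicate 1 (-2.48) or 2 (-2.27). For cth-1 they were without wild-type cadmium replicate 1 (1.74) or 2 (1.65), mutant replicate 1 (1.60) or 2 (1.73) lacking cadmium, mutant cadmium replicate 1 (1.77) or 2 (1.62), and the sperm covariate (1.57).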

How the results depend on the processing

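None of the 5 genes passed in any of the 17 alternatives (100 counts of calls over the contrasts), with 500 log2 changes between -0.30 and 0.36 and an adjusted p of 0.308 or more. Their signs, close to 0, changed in many: with RLE size factors gsr-1 with cadmium in the mutant was -0.0048 and the gss-1 interaction -0.028 (DESeq2 -0.0048 and -0.028, 1 CPM filter -0.0061 and -0.047). With upper-quartile scaling gss-1 was 0.018 with cadmium in the wild type, 0.062 for genotype without cadmium and -0.066 for the interaction, gsr-1 0.027 for genotype without cadmium and averaged gcs-1 0.0061. That scaling moved the median of all genes by 0.071, 0.079 and -0.079 in the contrasts given for gss-1, close to the moves of gss-1 itself. For genotype without cadmium gss-1 was 0.014 with no filter, 0.031 with the 1 CPM filter and 0.0053 with only that contrast's libraries. With no filter gss-1 was also 0.0041 for genotype with cadmium and -0.010 for the interaction. For cadmium in the wild type gcs-1 was -0.00035 by limma-voom, -0.0034 with the replicate block and -0.16 with the sperm covariate. With that covariate nnt-1 was -0.064, genotype with cadmium 0.043 for gss-1 and 0.033 for hmt-1, and the interaction 0.14 for gcs-1 and 0.0088 for gsr-1. The replicate block changed no call of the 5 genes. Among the genes around them it ended the calls of gst-38 for cadmium in the mutant (1.93) and genotype with cadmium (-1.02), of ttm-1 for cadmium in the wild type (0.91) and of mtl-2 for genotype without cadmium (-2.45).

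Leaving out 1 library changed the sign of these values and gave, for cadmium in the wild type, -0.074 to 0.077 for gcs-1, -0.12 to 0.014 for gss-1, -0.00057 to 0.086 for gsr-1, -0.020 to 0.10 for pcs-1 and -0.30 to 0.012 for hmt-1. For cadmium in the mutant it gave -0.22 to 0.15 for gcs-1, -0.11 to 0.033 for gss-1, -0.064 to 0.10 for gsr-1 and -0.16 to 0.045 for hmt-1. Averaged over genotypes these were -0.11 to 0.10 for gcs-1, -0.082 to 0.016 for gss-1, -0.015 to 0.095 for gsr-1 and -0.10 to 0.040 for pcs-1. For genotype without cadmium they were -0.016 to 0.34 for gcs-1, -0.064 to 0.056 for gss-1, -0.11 to 0.029 for gsr-1, -0.012 to 0.19 for pcs-1 and -0.17 to 0.014 for hmt-1. With cadmium they were -0.071 to 0.060 for gss-1 and -0.16 to 0.15 for hmt-1. For the interaction they were -0.22 to 0.10 for gcs-1, -0.061 to 0.080 for gss-1, -0.097 to 0.021 for gsr-1 and -0.071 to 0.24 for hmt-1.

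Counts over all genes moved more. Cadmium in the wild type called 45 genes, but 203 by DESeq2, 576 with no filter, 399 with only its own libraries, 26 with the sperm covariate and 17 to 423 without 1 library, the highest without wild-type replicate 1 lacking cadmium. In the mutant it called 5, but 3 with RLE, 11 by DESeq2, 1 by limma-voom, 21 with no filter, 0 with only its own libraries or the replicate block, 14 with the sperm covariate and 0 to 14 without 1 library. Genotype without cadmium called 20, but 94 by DESeq2, 11 by limma-voom, 630 with no filter, 0 with only its own libraries, 12 with the replicate block, 73 with the sperm covariate and 9 to 449 without 1 library, the highest without wild-type replicate 2 lacking cadmium. With cadmium it called 674, but 1188 with no filter, 1288 with only its own libraries, 18 with the sperm covariate and 24 to 1059 without 1 library, the lowest without wild-type cadmium replicate 1. In this comparison the sperm covariate cannot be told apart from genotype. The interaction called 18, but 28 by DESeq2, 90 with no filter and 4 to 71 without 1 library. The cause was not tested. Of 20 group levels, deposited CPM moved 7 by more than 1 SD, deposited RPKM 7 and the other exon lengths 8.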
